A study of Homo sapiens with 12 samples.

Results

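The prostaglandin genes described here were PTGS2, PTGS1, PTGES, PTGES2, PTGES3, PTGIS, PTGER2, PTGER4 and HPGD, which make prostaglandins, carry their signal into the cell or break them down. They were taken by gene name from the deposited expression tables, 9 of 63677 gene identifiers, and were selected on their TPM, a read density scaled for gene length and library size, in these same libraries, with the differences between lines and cultures already known, so their differences are given as a description, without p-values, and counts of calls among them are no test of them. Expression was measured by poly-A RNA-seq in DAOY, a human medulloblastoma cell line, in 12 libraries. Each of 3 genotypes, labelled NOTCH1KO, NOTCH2KO and WT, was cultured on plates coated with the Notch ligand Jagged1 or with Fc as the control coating, and on each coating with DAPT or with DMSO. DAPT, named in the labels as a pan-Notch inhibitor, blocks γ-secretase, the protease that releases the active intracellular part of Notch, and was given for 12 h. All cultures were of the same cell line in serum-containing medium, each knockout was 1 line made by CRISPR/Cas9, and every combination of genotype, coating and treatment had 1 library, so no condition was replicated. Groups were therefore compared over matched libraries, 4 pairs for each genotype comparison and 3 pairs for each culture comparison.

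Prostaglandins are signalling lipids made from arachidonic acid. The cyclooxygenases PTGS1 and PTGS2, known as COX-1 and COX-2, convert it to prostaglandin H2, terminal synthases turn that into prostaglandin E2, prostacyclin and other products, and G protein-coupled receptors sense them. PTGS1 is usually regarded as the constitutive enzyme, whereas PTGS2 is an immediate-early gene induced by growth factors, cytokines and cAMP, and its overexpression is common in tumours. The Notch receptors, once cleaved, act in the nucleus with the DNA-binding protein CSL, also called RBPJ.

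PTGS2 is the gene with the clearest culture pattern, so its proximal promoter is shown. The following 250 bases lie upstream of the PTGS2 transcription start (RefSeq, GRCh38.p14, chr1:186680424-186680673, minus strand).
PTGS2 promoter: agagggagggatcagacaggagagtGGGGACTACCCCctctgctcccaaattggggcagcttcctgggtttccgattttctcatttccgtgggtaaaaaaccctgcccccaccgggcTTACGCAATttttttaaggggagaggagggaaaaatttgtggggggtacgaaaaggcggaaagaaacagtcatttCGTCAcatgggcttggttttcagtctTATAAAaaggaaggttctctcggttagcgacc
The capitals mark, in order, 4 overlapping matches to an NF-κB pattern (GGG and CC with any 5 bases between, first base at -225), a C/EBP pattern (TTNNGCAAT at -133), a core of the cAMP response element, CRE (CGTCA at -58) and a TATA box (TATAAA at -32), counted from the transcription start. Both strands were searched, and an E-box pattern (CANNTG at -55) overlapped the CRE core. Of 35116 windows of the same length upstream of RefSeq genes, 10.7% held TATAAA, 21.2% CGTCA, 2.04% TTNNGCAAT, 54.4% the NF-κB pattern and 61.8% CANNTG. The core TGGGAA, which CSL recognises, was not among these 250 letters, and 20.8% of all windows held it. RefSeq windows were matched for 8 of the 9 genes, 12 windows in all, and TGGGAA was found in windows of 2 of them, HPGD and PTGER4. These matches describe letters in the windows and not bound sites.

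Depth was similar across libraries, with 18.3 to 22.4 M aligned reads, and 1 read in a transcript of 1 kb was worth 0.0947 to 0.117 TPM. The targeted genes followed the labels. NOTCH1 stood at 0.278 to 0.874 TPM in NOTCH1KO libraries and at 2.78 to 3.57 TPM in WT libraries. It lies on the long arm of chromosome 9, in a stretch where genes were lower in NOTCH1KO libraries, as described below. The part of that regional shift in the NOTCH1 level was not tested. NOTCH2 mRNA stood at 41.6 to 60.5 TPM in NOTCH2KO libraries and at 74.9 to 94.9 TPM in WT libraries, lower but far from absent. HEY1, a direct Notch target, had 31.5, 18.3 and 56.6 TPM on Jagged1 in DMSO in the NOTCH1KO, NOTCH2KO and WT lines, against 7.85, 11.04 and 11.5 TPM on Fc in DMSO. NRARP, another Notch target, did not follow the coating in every line. On Jagged1 in DMSO it had 5.05, 3.19 and 5.58 TPM in the same lines, against 4.49, 3.995 and 3.38 TPM on Fc in DMSO. Both genes were lower with DAPT in each line on each coating. With DAPT, HEY1 had 3.81, 13.1 and 10.9 TPM on Jagged1 and 4.64, 10.1 and 7.50 TPM on Fc. NRARP had 3.74, 2.59 and 2.25 TPM on Jagged1 with DAPT and 3.22, 3.02 and 2.82 TPM on Fc with DAPT. Of the markers for other cells, PTPRC, AIF1 and CD3E of blood and PECAM1 of endothelium were listed at 0 in all libraries. CSF1R and CD68 of blood and TEK of endothelium passed the filter on low values, a mean of at least 1 TPM. The 7 blood markers summed to 13.0 to 28.3 TPM in NOTCH1KO, 9.07 to 13.4 TPM in NOTCH2KO and 12.3 to 17.2 TPM in WT libraries, and the 5 endothelial markers to 3.11 to 5.68, 7.93 to 10.4 and 5.88 to 8.89 TPM in the same lines. Of 8 neural and medulloblastoma markers, 4 passed that filter (PTCH1, SFRP1, NES and VIM) and ATOH1, NEUROD1, GLI1 and MAP2 did not. In bulk RNA, fewer cells expressing a gene and less RNA per cell cannot be told apart.

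PTGS2 (ENSG00000073756, in GRCh37 as all gene positions here, chr1:186640923-186649559, minus strand) was highest on Jagged1 plates without inhibitor in all 3 genotypes. On Jagged1 in DMSO it stood at 181 TPM in NOTCH1KO, 189.8 TPM in NOTCH2KO and 234 TPM in WT cells. On Fc in DMSO it stood at 77.7 TPM in NOTCH1KO, 86.9 TPM in NOTCH2KO and 58.7 TPM in WT cells. The lowest Jagged1 value was thus above the highest Fc value, and the Jagged1 to Fc ratio was 2.33 in NOTCH1KO, 2.18 in NOTCH2KO and 3.99 in WT cells. With both groups averaged over the 3 genotypes, Jagged1 cultures in DMSO had 201.6 ± 28.7 TPM and Fc cultures in DMSO 74.4 ± 14.4 TPM (SD, n = 3 each).

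DAPT went with lower PTGS2 on both coatings. On Jagged1 with DAPT, PTGS2 had 57.1 TPM in NOTCH1KO, 111 TPM in NOTCH2KO and 62.1 TPM in WT cells, all below every Jagged1 culture in DMSO. The ratio of DAPT to DMSO on Jagged1 was 0.32 in NOTCH1KO, 0.58 in NOTCH2KO and 0.27 in WT cells. On Fc with DAPT, PTGS2 had 47.1 TPM in NOTCH1KO, 49.0 TPM in NOTCH2KO and 32.5 TPM in WT cells, and these ranges again lay below the Fc cultures in DMSO. The DAPT to DMSO ratio on Fc was 0.61 in NOTCH1KO, 0.56 in NOTCH2KO and 0.55 in WT cells. Among DAPT cultures, Jagged1 plates had more PTGS2 than Fc plates in 3 of 3 genotypes, with ratios of 1.21 in NOTCH1KO, 2.26 in NOTCH2KO and 1.91 in WT cells.

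**Figure D1:**
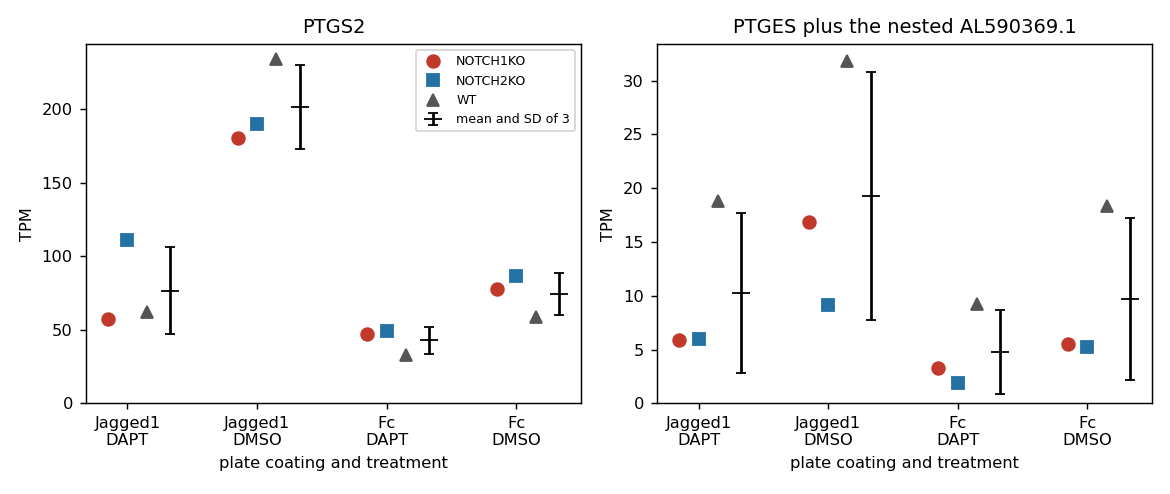
TPM of PTGS2 (left) and of the sum of PTGES and the gene nested in it, AL590369.1 (right), by plate coating and treatment. Each coloured point is 1 library, and the black bar gives the mean and SD over the 3 genotypes, which are not replicates of a condition. All 3 PTGS2 values on Jagged1 in DMSO, 181 to 234 TPM, lie above all others.

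In an additive model of genotype and culture, fitted with limma to log2(TPM + 1) of all genes, PTGS2 differed by 1.44 ± 0.23 (SE, on that log2 scale) between Jagged1 and Fc in DMSO. By size this was rank 61 from the top of 17621 genes. DAPT against DMSO gave -1.44 ± 0.23 on Jagged1, rank 86 from the bottom, and -0.78 ± 0.23 on Fc, rank 270 from the bottom. Jagged1 against Fc under DAPT gave 0.78 ± 0.23, rank 203 from the top. These 4 comparisons share libraries, the Jagged1 DMSO cultures entering both of the first 2, and are not separate support for each other. The SE reflects departure from additivity among these 12 libraries, moderated by limma over all genes, and not variation between repeat cultures.

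PTGS2 differed less between lines than between cultures. Over the 4 cultures it averaged 90.7 ± 61.4 TPM in NOTCH1KO, 109 ± 59.5 TPM in NOTCH2KO and 96.9 ± 92.6 TPM in WT libraries (SD, n = 4 each), with overlapping ranges. The fitted difference was 0.11 ± 0.20 for NOTCH1KO against WT and 0.41 ± 0.20 for NOTCH2KO against WT. The deposited coverage (mean reads per base), scaled here to library depth, gave steeper Jagged1 to Fc ratios in DMSO, 2.47 in NOTCH1KO, 2.66 in NOTCH2KO and 4.97 in WT cells. Within each line the cultures kept their order. Between the knockouts the order of this ratio changed, with NOTCH1KO higher in TPM and NOTCH2KO higher in coverage. The DAPT to DMSO ratios of coverage on Jagged1 were 0.24 in NOTCH1KO, 0.61 in NOTCH2KO and 0.21 in WT cells. A long intergenic RNA on the opposite strand just upstream, RP5-973M2.2 (ENSG00000273129), stayed between 0.126 and 2.98 TPM in all libraries.

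PTGS1 (ENSG00000095303, chr9:125132824-125157982, plus strand), the other cyclooxygenase, was close to undetected. It had 0.04 to 0.05 TPM in NOTCH1KO, 0 to 0.02 TPM in NOTCH2KO and 0.35 to 0.51 TPM in WT libraries. All 4 WT libraries lay above all 8 knockout libraries, at levels worth a few reads per kb. PTGS1 did not reach the mean of 1 TPM needed for the fit.

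The terminal prostaglandin E synthases differed in level and in pattern. PTGES3 (ENSG00000110958, chr12:57057127-57082159, minus strand), the cytosolic synthase that is also the HSP90 co-chaperone p23, was the most abundant of the 9 genes. It had 564, 351, 257 and 545 TPM in NOTCH1KO cells on Jagged1 with DAPT, on Jagged1 in DMSO, on Fc with DAPT and on Fc in DMSO. For the same cultures it had 556, 413, 402 and 647 TPM in NOTCH2KO cells and 794, 825, 775 and 524 TPM in WT cells. In TPM both knockouts were below WT in 3 of 4 cultures and above it on Fc in DMSO, so the groups overlapped. On the coverage scale the ratio to WT on Fc in DMSO was 0.89 for NOTCH1KO and 1.01 for NOTCH2KO. On that scale the NOTCH1KO range, 64.5 to 132, lay below the WT range, 138 to 187. The fitted difference was -0.81 ± 0.24 for NOTCH1KO against WT, with a range from -1.10 to -0.62 when 1 library at a time was left out, and -0.54 ± 0.24 for NOTCH2KO against WT.

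Reads of PTGES3 could not be assigned with certainty, because processed copies of it are listed separately. PTGES3P1 had 67.8 to 109 TPM, and PTGES3P3 stood at 82.8 TPM in WT cells on Jagged1 in DMSO and at 49.7 and 50.97 TPM in NOTCH2KO cells with DAPT on Jagged1 and on Fc, against at most 5.54 TPM elsewhere. The sum of PTGES3 and its 4 listed pseudogenes was 509 ± 151 TPM in NOTCH1KO, 619 ± 113 TPM in NOTCH2KO and 863 ± 162 TPM in WT libraries (SD, n = 4 each). This sum was chosen after the values were seen.

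PTGES2 (ENSG00000148334, chr9:130882972-130890741, minus strand), the membrane-associated type 2 synthase, was lowest in NOTCH1KO cells. It had 32.0, 23.0, 16.2 and 26.0 TPM in NOTCH1KO cells on Jagged1 with DAPT, on Jagged1 in DMSO, on Fc with DAPT and on Fc in DMSO. In that order it had 47.3, 41.7, 43.8 and 55.5 TPM in NOTCH2KO cells and 82.9, 51.7, 90.3 and 68.1 TPM in WT cells. The NOTCH1KO values did not overlap those of either other line, and NOTCH2KO was below WT in 4 of 4 cultures with overlapping ranges. The fitted difference was -1.56 ± 0.20 for NOTCH1KO against WT, -0.60 ± 0.20 for NOTCH2KO against WT and 0.96 ± 0.20 for NOTCH2KO against NOTCH1KO. PTGES2 was lower on Jagged1 than on Fc in DMSO in 3 of 3 genotypes, by -0.32 ± 0.23, with overlapping ranges. The direction was opposite to that of PTGS2, and the difference was -0.16 without the WT library on Jagged1 in DMSO. Under DAPT it was 0.31 ± 0.23, higher on Jagged1 in 2 of 3 genotypes, the same direction as PTGS2.

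PTGES (ENSG00000148344, chr9:132500610-132515326, minus strand), the inducible microsomal synthase that usually works with PTGS2, was low and irregular. It had 3.38, 1.33, 0.07 and 0.13 TPM in NOTCH1KO cells on Jagged1 with DAPT, on Jagged1 in DMSO, on Fc with DAPT and on Fc in DMSO. In that order it had 0.20, 5.07, 0.05 and 4.49 TPM in NOTCH2KO cells and 1.65, 1.82, 6.69 and 1.74 TPM in WT cells. The SE of its fitted differences, 0.74 for genotypes and 0.86 for cultures, was the widest of the 6 genes fitted, and none of its differences exceeded 0.92 in size.

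PTGES shares its locus with AL590369.1 (ENSG00000255824), a gene of 1274 bases on the same strand that begins 19 bases inside the low-coordinate end of PTGES, so that reads there could be counted to either gene. AL590369.1 had 2.55, 15.5, 3.21 and 5.35 TPM in NOTCH1KO cells on Jagged1 with DAPT, on Jagged1 in DMSO, on Fc with DAPT and on Fc in DMSO. It had 5.81, 4.09, 1.81 and 0.79 TPM in NOTCH2KO cells and 17.2, 30.0, 2.56 and 16.6 TPM in WT cells. AL590369.1 averaged 8.79 TPM over all libraries, against 2.22 TPM for PTGES, and so weighs most in their sum. AL590369.1 alone was higher on Jagged1 than on Fc in every matched pair except NOTCH1KO with DAPT. With DAPT it was lower than with DMSO in NOTCH1KO and WT cells and higher in NOTCH2KO cells, on both coatings.

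The sum of PTGES and AL590369.1, computed after the values were seen and mixing a long and a short gene, was higher on Jagged1 than on Fc in 6 of 6 matched pairs, and higher with DAPT than with DMSO in 0 of 6. On Jagged1 in DMSO it stood at 16.8 TPM in NOTCH1KO, 9.16 TPM in NOTCH2KO and 31.9 TPM in WT cells, against 5.47, 5.28 and 18.4 TPM on Fc in DMSO. On Jagged1 with DAPT the 3 lines had 5.93, 6.003 and 18.8 TPM, and on Fc with DAPT 3.28, 1.86 and 9.25 TPM. By line it averaged 7.87 ± 6.07 TPM in NOTCH1KO, 5.57 ± 2.996 TPM in NOTCH2KO and 19.6 ± 9.30 TPM in WT libraries (SD, n = 4 each), as shown beside PTGS2 in the plot by culture. These are levels without a test.

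PTGIS (ENSG00000124212, chr20:48120411-48184683, minus strand), the prostacyclin synthase, was below 2 TPM in every library and was not fitted. It had 0.33, 0.05, 0.19 and 0.12 TPM in NOTCH1KO cells on Jagged1 with DAPT, on Jagged1 in DMSO, on Fc with DAPT and on Fc in DMSO. In that order it had 0.99, 1.17, 1.15 and 1.20 TPM in NOTCH2KO cells and 1.35, 0.13, 1.73 and 0.48 TPM in WT cells. NOTCH2KO cells thus had nearly the same low level in all cultures, and all 4 NOTCH2KO libraries lay above all 4 NOTCH1KO libraries.

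The receptors EP2 and EP4, encoded by PTGER2 and PTGER4, both sense prostaglandin E2 and couple to the stimulatory G protein that raises cAMP. PTGER2 (ENSG00000125384, chr14:52781023-52795324, plus strand) was lower in NOTCH1KO cells than in both other lines. It had 1.45, 2.23, 1.87 and 1.06 TPM in NOTCH1KO cells on Jagged1 with DAPT, on Jagged1 in DMSO, on Fc with DAPT and on Fc in DMSO. In that order it had 8.41, 8.55, 7.65 and 7.32 TPM in NOTCH2KO cells and 6.46, 13.1, 6.84 and 8.29 TPM in WT cells. The highest NOTCH1KO value was well below the lowest value of either other line.

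The fitted PTGER2 difference was -1.84 ± 0.16 for NOTCH1KO against WT, rank 114 from the bottom of 17621 genes, and 1.78 ± 0.16 for NOTCH2KO against NOTCH1KO. For NOTCH2KO against WT it was -0.06 ± 0.16. These sizes depended on the scale. With a pseudocount of 0.1 they were -2.31 and 2.25 for the first 2 comparisons, and for NOTCH2KO against NOTCH1KO it was 1.41 with FPKM and 1.41 with coverage. By culture PTGER2 was higher on Jagged1 than on Fc in DMSO in 3 of 3 genotypes, by 0.48 ± 0.19, and lower with DAPT on Jagged1 in 3 of 3, by -0.44 ± 0.19, with overlapping ranges. The NOTCH2KO pair for DAPT on Jagged1 differed little, with a DAPT to DMSO ratio of 0.98 in TPM and of 1.03 in coverage, so that the direction held in 2 of 3 on that scale.

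PTGER4 (ENSG00000171522, chr5:40679600-40693837, plus strand) had another pattern. It had 8.80, 3.95, 5.99 and 4.22 TPM in NOTCH1KO cells on Jagged1 with DAPT, on Jagged1 in DMSO, on Fc with DAPT and on Fc in DMSO. In that order it had 6.36, 1.90, 5.54 and 6.99 TPM in NOTCH2KO cells and 4.73, 3.44, 2.37 and 2.83 TPM in WT cells. On Jagged1 it was higher with DAPT in 3 of 3 genotypes without overlap, by 0.90 ± 0.31, the direction opposite to PTGS2 and PTGER2. NOTCH1KO was above WT in 4 of 4 cultures, by 0.61 ± 0.27, with overlapping ranges.

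HPGD (ENSG00000164120, chr4:175411328-175444305, minus strand), the 15-hydroxyprostaglandin dehydrogenase that inactivates prostaglandins, was near the floor. It ranged from 0.10 to 0.41 TPM in NOTCH1KO, from 0.24 to 1.15 TPM in NOTCH2KO and from 0.14 to 0.27 TPM in WT libraries. The top value was in NOTCH2KO cells on Jagged1 with DAPT. HPGD was higher with DAPT than with DMSO in all 6 matched pairs, in differences worth a few reads per kb.

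**Figure D2:**
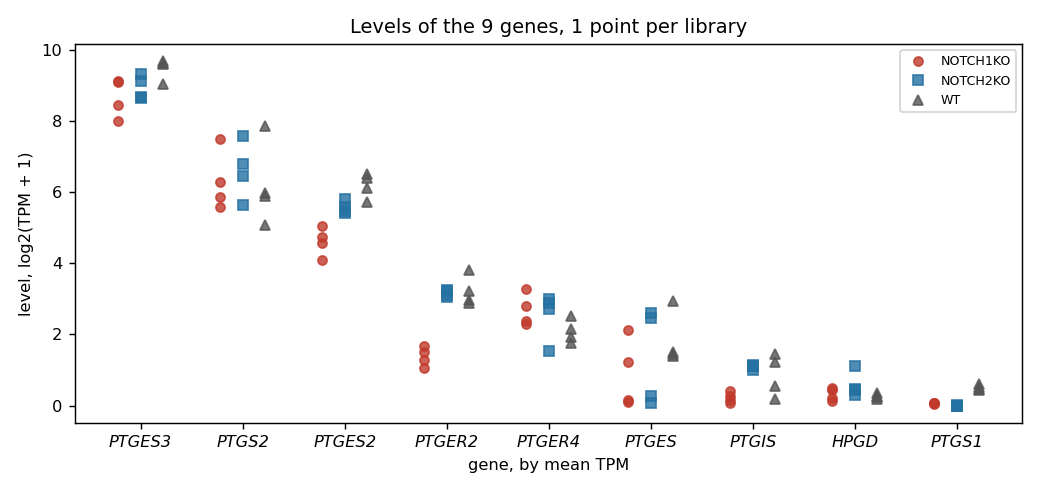
Level of each of the 9 genes on the log2(TPM + 1) scale, 1 point per library, by genotype, with genes in order of mean TPM. Mean levels run from 554 TPM for PTGES3 to 0.158 TPM for PTGS1, and NOTCH1KO lies below both other lines for PTGES2 and PTGER2.

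By mean TPM over the 12 libraries, a measure scaled for gene length, the order was PTGES3 at 554, PTGS2 at 98.9, PTGES2 at 48.2, PTGER2 at 6.10, PTGER4 at 4.76, PTGES at 2.22, PTGIS at 0.74, HPGD at 0.327 and PTGS1 at 0.158 TPM. Of neighbours in that order, the ranges over libraries were separate for PTGES3 with PTGS2 and for PTGES2 with PTGER2, and the ranges of all other neighbours overlapped. PTGS2 was above PTGES2 in 9 of 12 libraries, PTGER2 above PTGER4 in 8, PTGER4 above PTGES in 10, and PTGIS above HPGD in 6. PTGS2 was thus the abundant cyclooxygenase of this line, and PTGES3 the abundant prostaglandin E synthase.

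Of the 9 genes, 6 passed the filter of a mean of 1 TPM and entered the fit, and PTGS1, PTGIS and HPGD did not. In that fit a gene was called at an adjusted p under 0.05. In NOTCH1KO against WT, 3 of the 6 were called lower (PTGES2, PTGES3 and PTGER2) and 0 higher, where 23.5% of all 17621 genes were called, 12.8% lower and 10.7% higher. PTGES3 was called in 2 of 12 fits that each left out 1 library, those without WT or without NOTCH1KO on Fc in DMSO, and was not called without the filter on low values. In NOTCH2KO against NOTCH1KO, 2 of the 6 were called higher (PTGES2 and PTGER2), where 31.7% of all genes were called, 19.8% higher and 11.9% lower. In NOTCH2KO against WT, limma called 0 of the 6, where 19.3% of all genes were called, and 1 of them, PTGES2, had an unadjusted p under 0.05. At an unadjusted p under 0.05 the counts were 3 of 6 for NOTCH1KO against WT, where 37.5% of all genes passed, 1 of 6 for NOTCH2KO against WT, where 33.1% passed, and 2 of 6 for NOTCH2KO against NOTCH1KO, where 42.8% passed. TPM ranges did not overlap for 2, 0 and 2 of the 6 in these comparisons, beside 24.4%, 24.7% and 31.9% of all genes. Since the genes were chosen with these values known, nothing is read from the counts.

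The culture comparisons called almost nothing in the whole transcriptome. Limma called 0 of the 6 genes in each of them, where 0.0114% of all genes were called for Jagged1 against Fc in DMSO, 0.0284% for DAPT on Jagged1, 0.0341% for DAPT on Fc and 0.00568% for Jagged1 against Fc under DAPT. At an unadjusted p under 0.05 the counts were 2 of 6 for Jagged1 against Fc in DMSO, against 10.8% of all genes, and 3 of 6 for DAPT on Jagged1, against 11% of all genes. For DAPT on Fc and for Jagged1 against Fc under DAPT they were 1 of 6 each, against 6.14% and 4.74% of all genes. TPM ranges did not overlap for 1 of the 6 (PTGS2) for Jagged1 against Fc in DMSO, where they did not overlap for 8.28% of all genes, and for 2 of the 6 (PTGS2 and PTGER4) for DAPT on Jagged1, where they did not for 8.37%. For DAPT on Fc and for Jagged1 against Fc under DAPT 1 of the 6 did not overlap, beside 4.76% and 3.76% of all genes.

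**Figure D3:**
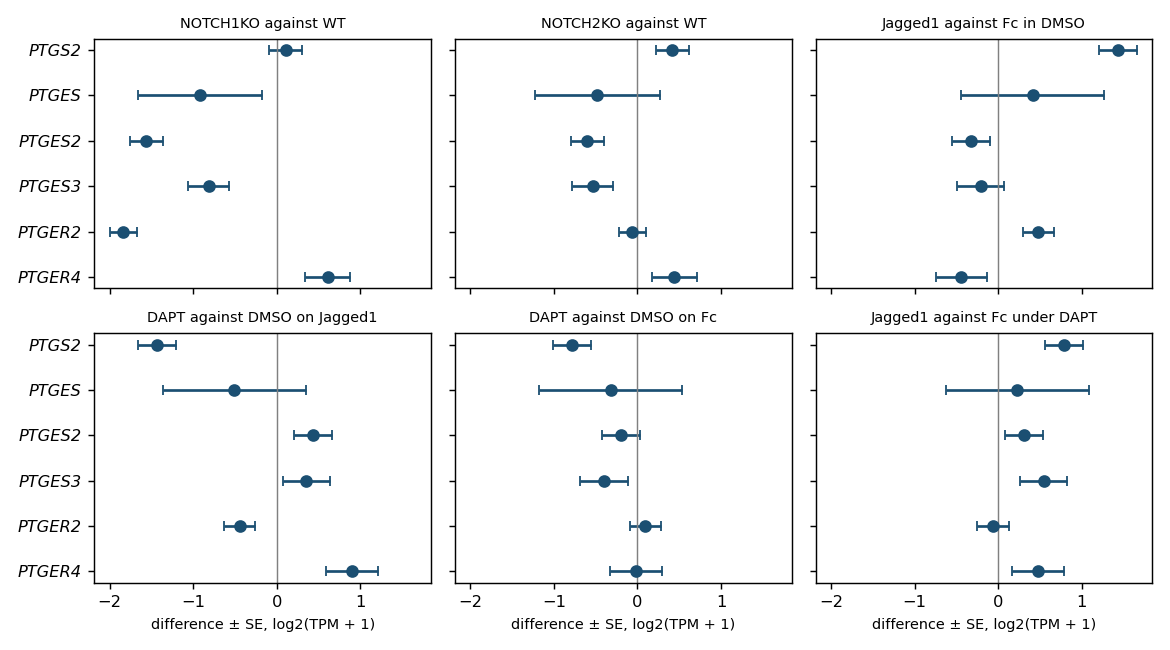
Fitted differences with their SE, on the log2(TPM + 1) scale, for the 6 genes that entered the fit, in 2 genotype and 4 culture comparisons. PTGS2 lies at 1.44 for Jagged1 against Fc in DMSO and at -1.44 for DAPT on Jagged1, and PTGES2 and PTGER2 lie lowest for NOTCH1KO against WT.

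PTGS1, PTGES and PTGES2 all lie on the long arm of chromosome 9, where genes were lower in NOTCH1KO libraries over a long stretch. The 373 fitted protein-coding genes of chromosome 9 beyond 70 Mb had a median difference of -0.76 for NOTCH1KO against WT and of -0.17 for NOTCH2KO against WT. Within 5 Mb of PTGES2, 104 genes had a median of -0.82 with quartiles of -1.17 and -0.48, and 10 of them lay below PTGES2 itself at -1.56. Within 5 Mb of PTGES, 42 of 116 genes lay below its own value of -0.92, and the 45 genes around PTGS1 had a median of -0.83. The part of this regional shift in the PTGES2 difference was not tested.

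The other genes stood differently to their surroundings. Around PTGER2 on chromosome 14, 53 genes had a median of -0.23 for NOTCH1KO against WT, and 0 of them were lower than PTGER2 at -1.84. For NOTCH2KO against NOTCH1KO all 53 lay below PTGER2 at 1.78. Around PTGES3, 126 genes had a median of -0.13 and 9 lay lower than PTGES3 at -0.81. The medians around PTGS2, PTGER4, PTGIS and HPGD were 0.16, 0.35, 0.03 and 0.06. PTGES2 and PTGER2 were thus both lower in NOTCH1KO than in WT cells, with ratios of mean TPM of 0.33 and 0.19. PTGES2 lay within a region that was lower as a whole and PTGER2 apart from its neighbours.

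**Figure D4:**
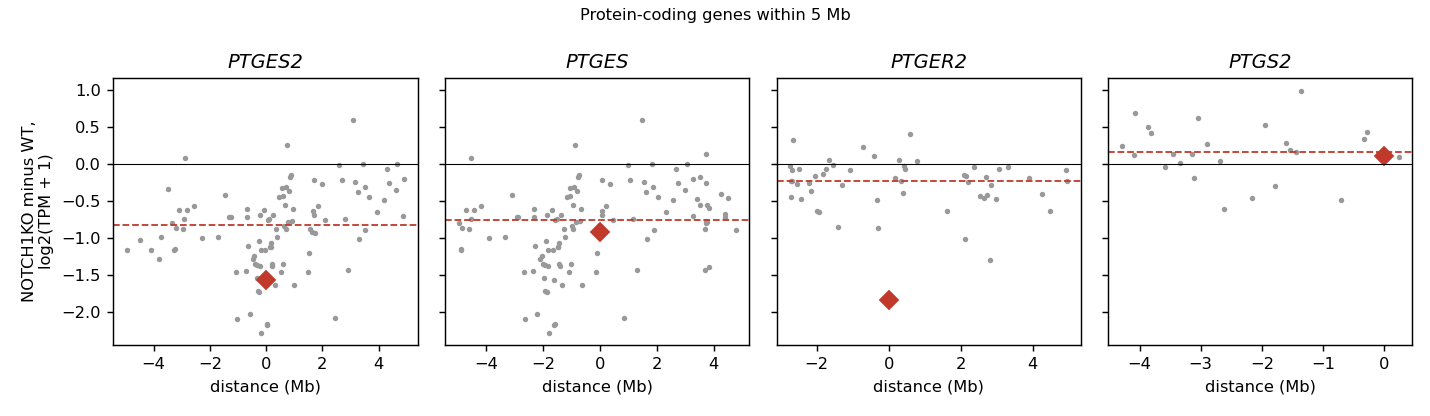
Fitted NOTCH1KO minus WT difference on the log2(TPM + 1) scale of protein-coding genes within 5 Mb of PTGES2, PTGES, PTGER2 and PTGS2, by distance. The red diamond is the named gene, grey points are its neighbours and the dashed line is their median, at -0.82, -0.76, -0.23 and 0.16.

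The genes whose TPM over the 12 libraries was most like that of PTGS2 on the log2(TPM + 1) scale, among 10404 protein-coding genes with a mean of at least 5 TPM, were LAMC1 (r = 0.95), IGSF3 (r = 0.93), F2R (r = 0.92), CSGALNACT1 (r = 0.92), LIPG (r = 0.91) and CHMP1B (r = 0.91). LAMC1 encodes a laminin chain, F2R a thrombin receptor and LIPG the endothelial lipase. CSGALNACT1, a chondroitin sulphate synthesis enzyme, had 22.7, 14.6 and 25.3 TPM on Jagged1 in DMSO in the NOTCH1KO, NOTCH2KO and WT lines, against 8.26, 9.18 and 7.17 TPM on Fc in DMSO. The most opposite were SHMT1 (r = -0.88), BLOC1S2 (r = -0.88) and RFPL4AL1 (r = -0.86). BLOC1S2 stood at 17.9, 21.1 and 16.1 TPM on Jagged1 in DMSO in the NOTCH1KO, NOTCH2KO and WT lines, against 76.1, 89.5 and 86.2 TPM on Fc in DMSO. It was also low, at 16.9 TPM, in NOTCH2KO cells on Jagged1 with DAPT, where the NOTCH1KO and WT lines had 78.5 and 76.6 TPM. In that culture NOTCH2KO also had the most PTGS2 of the 3 lines.

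After genotype means were subtracted, the closest genes were SH2B3 (r = 0.99), ARHGEF6 (r = 0.98), KLF9 (r = 0.98), PPP1R11 (r = 0.97), FYN (r = 0.97) and IGFBP1 (r = 0.97). KLF9, a Krüppel-like transcription factor, had 29.04, 20.1 and 70.2 TPM on Jagged1 in DMSO in the NOTCH1KO, NOTCH2KO and WT lines, against 10.5, 11.6 and 16.5 TPM on Fc in DMSO. IGFBP1, a secreted binding protein of insulin-like growth factors, had 4.55, 20.4 and 12.2 TPM on Jagged1 in DMSO in the same lines, against 1.19, 8.66 and 2.50 TPM on Fc in DMSO. PTGER2 reached r = 0.72 with PTGS2 on this measure, place 801 of 10404, PTGES3 0.10 and PTGES2 -0.41. The 12 points share 3 lines and 4 cultures and are not independent, so the correlations are given as a description only.

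The rest of the pathway was followed in 7 lists of other genes, 80 in all, of which 61 passed the filter. These genes were tested in the fit over all genes with Benjamini-Hochberg adjustment. The lists too were drawn up with earlier results of these libraries known, so their counts and p-values describe these libraries and are not independent evidence. In NOTCH1KO against WT 7 rose and 18 fell, so that 41.0% were called beside 23.5% of all genes. In NOTCH2KO against WT 8 rose and 5 fell, 21.3% beside 19.3%, and in NOTCH2KO against NOTCH1KO 19 rose and 4 fell, 37.7% beside 31.7%. The median difference of the 61 genes was -0.04, 0.17 and 0.27 in these comparisons, beside 0.00, 0.06 and 0.07 over all genes. Limma called 0 of the 61 in each of the 4 culture comparisons, where 12, 13, 7 and 5 had an unadjusted p under 0.05 for Jagged1 against Fc in DMSO, DAPT on Jagged1, DAPT on Fc and Jagged1 against Fc under DAPT. Over all genes 10.8%, 11%, 6.14% and 4.74% passed in the same order.

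Of 11 tested genes that release arachidonic acid or its precursors, 1 fell in NOTCH1KO against WT, 1 rose in NOTCH2KO against WT, and 4 rose in NOTCH2KO against NOTCH1KO, where 31.7% of all genes were called. Against WT, 23.5% of all genes were called in NOTCH1KO and 19.3% in NOTCH2KO. MGLL, the monoacylglycerol lipase, averaged 63.9 ± 13.7 TPM in NOTCH1KO and 122 ± 8.50 TPM in WT libraries (SD, n = 4 each), and fell by 0.95 ± 0.14 on the log2 scale (limma, adjusted p = 0.00265). FAAH, the fatty acid amide hydrolase, averaged 8.34 ± 2.31 TPM in NOTCH2KO and 3.201 ± 1.15 TPM in WT libraries, and rose by 1.17 ± 0.17 (limma, adjusted p = 0.00294). DAGLA and PNPLA8 rose in NOTCH2KO against NOTCH1KO by 0.59 and 0.51, and both lost the call with median-centred libraries, DAGLA also without the filter on low values, and in 6 and 3 of 12 fits that each left out 1 library. PLA2G4A, the cytosolic phospholipase A2, did not pass in NOTCH1KO against WT (0.10 ± 0.13) or in NOTCH2KO against WT (0.38 ± 0.13, limma, adjusted p = 0.0682). PLA2G2A, PLA2G5 and PLA2G10 were listed at 0 throughout.

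Of the other prostanoid synthases, 3 of 5 tested fell in NOTCH1KO against WT, where 23.5% of all genes were called, 12.8% lower. AKR1C3, which makes prostaglandin F2α and its relatives, averaged 0.843 ± 0.823 TPM in NOTCH1KO, 14.0 ± 2.58 TPM in NOTCH2KO and 18.8 ± 6.10 TPM in WT libraries (SD, n = 4 each). It fell by 3.49 ± 0.34 in NOTCH1KO against WT (limma, adjusted p = 0.000424), and for NOTCH2KO against WT the difference was -0.36 ± 0.34. CBR1, a carbonyl reductase acting on prostaglandin E2, averaged 63.7 ± 6.11 TPM in NOTCH1KO and 105 ± 8.03 TPM in WT libraries and fell by 0.71 ± 0.07 (limma, adjusted p = 0.000543). AKR1B1, a prostaglandin F synthase, fell by 0.40 ± 0.08 in NOTCH1KO and by 0.27 ± 0.08 in NOTCH2KO, both against WT, and both calls were lost on the coverage scale, the second also without the filter on low values and in 9 of 12 fits with 1 library left out. TBXAS1, the thromboxane synthase, averaged 14.0 ± 2.74 TPM in NOTCH2KO and 7.41 ± 1.73 TPM in NOTCH1KO libraries and rose by 0.85 ± 0.19 between them.

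Of 7 genes of prostaglandin transport and reduction, 4 fell and 2 rose in NOTCH1KO against WT, where 23.5% of all genes were called. In NOTCH2KO against WT, where 19.3% were called, 2 rose and 0 fell. The 2 that rose were in both comparisons the transporters SLCO2A1 and ABCC4, named after their values were seen. SLCO2A1 averaged 35.1 ± 4.70 TPM in NOTCH1KO, 26.3 ± 4.47 TPM in NOTCH2KO and 17.4 ± 6.09 TPM in WT libraries (SD, n = 4 each). It rose by 1.03 ± 0.13 in NOTCH1KO (limma, adjusted p = 0.00114) and by 0.62 ± 0.13 in NOTCH2KO (limma, adjusted p = 0.0117), both against WT, and on the coverage scale stood at 0.45 and 0.36 without a call. ABCC4 averaged 17.2 ± 2.31 TPM in NOTCH1KO, 21.2 ± 2.25 TPM in NOTCH2KO and 11.6 ± 1.66 TPM in WT libraries, and rose by 0.53 ± 0.11 and by 0.82 ± 0.11 against WT, calls that held in every alternative. The 4 that fell were reductases. AKR1C1 averaged 0.432 ± 0.322 TPM in NOTCH1KO and 6.73 ± 1.69 TPM in WT libraries and fell by 2.43 ± 0.27. AKR1C2 averaged 0.0463 ± 0.0589 TPM in NOTCH1KO and 4.82 ± 1.15 TPM in WT libraries and fell by 2.45 ± 0.18. Both are aldo-keto reductases closely related in sequence to each other and to AKR1C3. Each of the 3 was listed under 2 identifiers, of which the more abundant was used. Their separate values are therefore uncertain. All 3 lost no call in any alternative tried. PTGR1, a prostaglandin reductase on chromosome 9, averaged 67.0 ± 16.1 TPM in NOTCH1KO and 172 ± 38.9 TPM in WT libraries and fell by 1.35 ± 0.16. Genes of chromosome 9 beyond 70 Mb had a median of -0.76 for NOTCH1KO against WT, as given above. The part of any regional shift in the PTGR1 difference was not tested. CBR3 fell by 0.90 ± 0.10 in the same comparison (limma, adjusted p = 0.000905). In NOTCH2KO against NOTCH1KO, AKR1C1, AKR1C2, PTGR1 and CBR3 were the 4 that rose, by 2.32, 2.25, 1.05 and 1.12. Of all genes, 19.8% were called higher in that comparison.

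Other prostanoid receptors were scarce. Of 7, 1 passed the filter, PTGFR, the receptor of prostaglandin F2α, and it was not called in any comparison. PTGER1, encoding EP1, was listed at 0 in all libraries. In the lipoxygenase branch, which makes leukotrienes from the same precursor, 4 of 11 genes passed, and ALOX5 did not. ALOX5AP, the 5-lipoxygenase activating protein, averaged 7.39 ± 2.68 TPM in NOTCH1KO and 2.76 ± 1.13 TPM in WT libraries and rose by 1.13 ± 0.19 (limma, adjusted p = 0.00479). LTA4H, the leukotriene A4 hydrolase, fell by 0.29 ± 0.08 in NOTCH1KO and by 0.28 ± 0.08 in NOTCH2KO, both against WT, calls that were lost in 9 and 10 of 12 fits with 1 library left out, the first also with median-centred libraries and the second without the filter on low values.

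Among 18 factors known to act on PTGS2 transcription or mRNA decay, 8 fell and 1 rose in NOTCH1KO against WT, where 23.5% of all genes were called. In NOTCH2KO against WT, where 19.3% were called, 3 fell and 2 rose. CEBPD, a C/EBP factor, averaged 1.68 ± 0.394 TPM in NOTCH1KO, 3.13 ± 0.320 TPM in NOTCH2KO and 6.39 ± 2.05 TPM in WT libraries (SD, n = 4 each). It fell by 1.43 ± 0.21 in NOTCH1KO (limma, adjusted p = 0.00271) and by 0.80 ± 0.21 in NOTCH2KO (limma, adjusted p = 0.0331), both against WT, and the second call was lost without the filter on low values and in 7 of 12 fits with 1 library left out. JUN, a subunit of AP-1, averaged 44.3 ± 9.80 TPM in NOTCH1KO, 84.0 ± 9.57 TPM in NOTCH2KO and 69.9 ± 21.5 TPM in WT libraries. It fell by 0.62 ± 0.15 in NOTCH1KO against WT, a call lost in 4 of 12 such fits (without WT on Fc in DMSO, WT on Fc with DAPT, NOTCH1KO on Fc with DAPT or NOTCH1KO on Jagged1 in DMSO, over a range of -0.74 to -0.49), and rose by 0.93 ± 0.15 in NOTCH2KO against NOTCH1KO. FOS averaged 0.730 TPM in NOTCH1KO and 2.04 TPM in WT libraries and fell by 0.80 ± 0.21, a call lost in 7 of 12, without the filter on low values and on the coverage scale. CELF2, an RNA-binding protein that stabilises PTGS2 mRNA, averaged 0.234 TPM in NOTCH1KO, 2.58 TPM in NOTCH2KO and 1.09 TPM in WT libraries, and its calls against WT, -0.75 ± 0.16 in NOTCH1KO and 0.78 ± 0.16 in NOTCH2KO, were lost on the coverage scale, with -0.03 and 0.02. PTGS2 itself stood at similar mean levels in the 3 lines, as given above.

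Downstream of EP2 and EP4, 15 genes of cAMP signalling were tested, of which 3 rose and 1 fell in NOTCH1KO against WT and 3 rose in NOTCH2KO against WT. These shares were close to the 23.5% and 19.3% of all genes called there. PDE4A, a cAMP phosphodiesterase, averaged 11.8 ± 3.98 TPM in NOTCH1KO, 10.8 ± 2.12 TPM in NOTCH2KO and 5.05 ± 1.26 TPM in WT libraries (SD, n = 4 each). It rose by 1.04 ± 0.19 in NOTCH1KO and by 0.97 ± 0.19 in NOTCH2KO, both against WT, and on the coverage scale the second was 0.25 and not called. GNAS, the stimulatory G protein subunit, averaged 649.8 ± 104 TPM in NOTCH1KO, 766 ± 142 TPM in NOTCH2KO and 423 ± 71.4 TPM in WT libraries and rose by 0.62 ± 0.17 and by 0.85 ± 0.17 against WT. The NOTCH1KO call was lost in 6 of 12 fits with 1 library left out, without the filter on low values and on the coverage scale. ADCY7, an adenylate cyclase, averaged 11.8 ± 3.32 TPM in NOTCH2KO and 4.57 ± 1.21 TPM in WT libraries and rose by 1.18 ± 0.25, but stood at 0.23 without a call on the coverage scale, and was not called without the WT library on Fc in DMSO, at 1.08. NR4A1, an immediate-early target of cAMP, averaged 3.06 ± 1.55 TPM in NOTCH1KO and 5.22 ± 1.80 TPM in WT libraries and fell by 0.66 ± 0.15. That call was lost without the WT library on Fc in DMSO, at -0.62.

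**Figure D5:**
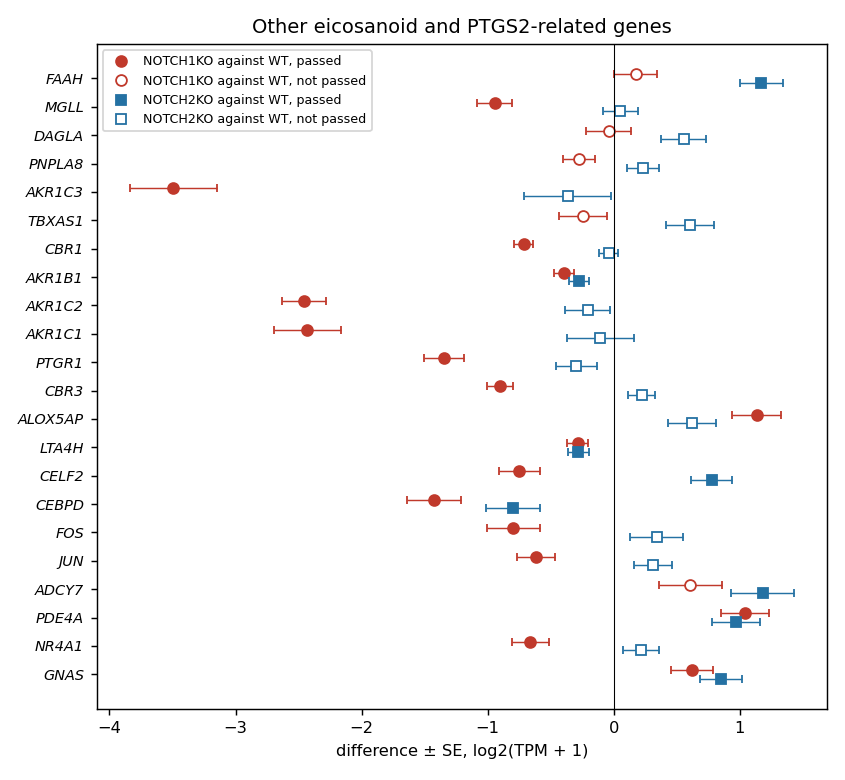
Fitted differences with their SE on the log2(TPM + 1) scale for the named pathway genes, NOTCH1KO against WT in red circles and NOTCH2KO against WT in blue squares. Filled symbols passed an adjusted p under 0.05 in limma, and AKR1C3, AKR1C2 and AKR1C1 lie lowest for NOTCH1KO, at -3.49, -2.45 and -2.43.

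Whether the culture response differed between lines was tested for the pathway genes with interaction terms for Jagged1 and for DAPT. Each term was pooled, Jagged1 over DMSO and DAPT cultures, and DAPT over both coatings. Line differences in the Jagged1 response in DMSO alone were not tested. Limma called 0 of 61 genes in each of the 6 contrasts between lines, with 4 residual degrees of freedom, where between 0 and 8 of all genes were called.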

How the data were processed

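Poly-A RNA was made into stranded TruSeq mRNA libraries and read as single 51-base reads on a HiSeq2500. The submitters' processing notes name bcl2fastq 2.17, CASAVA and GRCh37. The aligner, quantifier, annotation and strand setting are not given in the sources used here, and without the strand setting overlapping genes cannot be separated. TPM, deposited by the authors, is scaled for gene length and library. FPKM, deposited by the authors, is scaled for length and reads. Coverage, deposited by the authors, is mean read depth per base and is not scaled between libraries. Reads per library were worked out from coverage divided by FPKM.

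TPM was summed per identifier. Of the 66 library pairs, 0 held identical values (r between 0.924 and 0.976). Values were fitted as log2(TPM + 1) with limma 3.58.1 in R 4.3.3 (mean-variance trend, additive genotype and culture, 6 residual degrees of freedom) for the 17621 genes averaging 1 TPM or more, with Benjamini-Hochberg adjustment over all genes in each of 7 comparisons and a threshold of 0.05. P-values set each fitted difference against departure from additivity among single libraries, moderated by limma over all genes. They do not weigh it against variation between repeat cultures. Gene types came from GENCODE v29, matching 52526 identifiers.

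The genes and lists were chosen with earlier results of these data known. Named were the 9 genes, up to 4 called genes with the largest differences per pathway list, and the genes most like PTGS2. Other list members are given as counts, except SLCO2A1, ABCC4 and PLA2G4A, named after their values were seen. Alternatives were a pseudocount of 0.1, no filter, a mean TPM of at least 5, FPKM, median-centred libraries, WT left out of the culture comparisons, each library left out, and, added after seeing the data, coverage scaled to depth.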

Additional observations from a re-analysis of the deposited data

Results flagged for a closer look

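Within the 4 cultures of a line, 5 of 27 combinations of gene and line held a library that stood apart by Dixon's criterion (0.829 for 4 samples). Chance meets it in about 1 in 20 groups of like samples, but these 4 are different cultures of genes chosen on their values, so the number of cases is not set against that rate. PTGS2 stood at 234 TPM in WT cells on Jagged1 in DMSO, with the other WT libraries at 32.5 to 62.1 TPM. PTGS1 was listed at 0.0203 TPM in NOTCH2KO cells on Fc in DMSO and at 0 in the other NOTCH2KO libraries, where any single value above 0 meets the criterion. PTGES stood at 6.69 TPM in WT cells on Fc with DAPT, with the others at 1.65 to 1.82 TPM. PTGES3 stood at 524 TPM in WT cells on Fc in DMSO, with the others at 775 to 825 TPM. HPGD stood at 1.15 TPM in NOTCH2KO cells on Jagged1 with DAPT, with the others at 0.238 to 0.374 TPM.

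For 2 scarce genes the lines moved in opposite directions in every pair, on the log2(TPM + 1) scale, and the difference was not tested. PTGIS differed by -0.12 and -0.03 with DAPT in NOTCH2KO cells, against 1.06 and 0.89 in WT cells, a gap of -1.05 between the lines. Against NOTCH1KO cells, where DAPT gave 0.34 and 0.09, the gap was -0.29. HPGD differed by 0.13 and 0.65 with Jagged1 in NOTCH2KO cells, against -0.06 and -0.08 in WT cells, a gap of 0.46.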

How the results depend on the processing

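No called result changed direction under any alternative run. Pairing by replicate was not possible, because every combination of genotype, coating and treatment had 1 library. Libraries were matched by culture or by line only, through the terms of the additive model. For PTGS2, leaving out each library in turn gave 1.17 to 1.65 for Jagged1 against Fc in DMSO, -1.67 to -1.17 for DAPT on Jagged1, -0.93 to -0.66 for DAPT on Fc, 0.55 to 0.97 for Jagged1 against Fc under DAPT, -0.00 to 0.31 for NOTCH1KO against WT, 0.24 to 0.61 for NOTCH2KO against WT and 0.13 to 0.47 for NOTCH2KO against NOTCH1KO. Coverage gave -0.85 for DAPT on Fc. Pathway genes that fell in NOTCH2KO against WT numbered 3 with no filter, against 5, and 1 to 6 with a library left out. Those that fell in NOTCH1KO against WT numbered 11 at a mean TPM of at least 5, against 18, and 14 to 18 with a library left out. Those that rose in NOTCH2KO against NOTCH1KO numbered 11 at that filter, against 19, and 15 to 20 with a library left out. Those that rose in NOTCH2KO against WT numbered 5 with coverage, against 8, and 7 to 11 with a library left out. Those that rose in NOTCH1KO against WT numbered 4 to 8, against 7, and those that fell in NOTCH2KO against NOTCH1KO 1 to 4, against 4. The causes were not tested. Fewer genes enter the fit at the stricter filter, and the share of pathway genes called there is not given. Of 45 calls of named pathway genes, 27 held in every alternative. With coverage, 2 of the 6 genes most like PTGS2 stayed among the nearest 6 on each measure. Differences of PTGES depended on single libraries, with -0.15 to 1.15 for Jagged1 against Fc in DMSO. Genes below 1 TPM rest on few reads.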
